A study of Mus musculus with 6 samples.

Results

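Circadian clock genes were described in the retinal pigment epithelium (RPE), the pigmented layer behind the photoreceptors, of wild-type (WT) and Abca4-/- (Abca4KO) mice. Each genotype had 3 libraries. The set was given as a list of gene names: Arntl, Clock, Per1, Per2, Per3, Cry1, Cry2, Nr1d1, Nr1d2 and Dbp. All 10 were found, of 54532 genes in the deposited count table, and all 10 passed the filter on low counts that left 17340 genes for testing. WT mice were of the Jackson strain 129S1/SvlmJ and Abca4KO mice of the Jackson line Abca4tm1Ght/J, and both carried the Leu450 form of Rpe65. Line and genotype change together, so that their parts cannot be told apart. All mice lived under a light phase of 12 h and RNA was taken 5 h after light onset, so that the data hold 1 time of day and no rhythm can be read from them. The sources used here do not give the age of the mice.

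The clock is a loop of transcription and feedback. The proteins CLOCK and BMAL1 (the product of Arntl) bind E-box elements together and switch on the Per and Cry genes, the Nr1d genes and Dbp. PER and CRY proteins then repress CLOCK and BMAL1, while the Nr1d products REV-ERBα and REV-ERBβ repress Arntl through ROR elements, and DBP activates genes with D-box elements. In the light phase of mice Dbp and the Nr1d genes stand high in most tissues and Arntl stands low. In the RPE the clock is known for its part in the daily timing of outer segment engulfment.

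Of the 10 genes, 0 differed between Abca4KO and WT at an adjusted p under 0.05 by the quasi-likelihood test of edgeR, in which 0.0461% of all tested genes passed. At an unadjusted p under 0.05 the count was also 0, against 7.02% of all tested genes. At that unadjusted threshold it was 0 with DESeq2, beside 6.1% of the 17278 of these genes that it gave a p for, and 2 with limma-voom, beside 16.9%, and no member passed after adjustment by either tool. A negative log2 fold change was found for 8 of the 10, with a median of -0.14, beside 52.2% negative and a median of -0.01 over all tested genes. Every Abca4KO library held less than every WT library of Per3, Cry1 and Nr1d2, which is 3 of 10, and the genotypes did not overlap in 12.8% of all tested genes. Levels are given as CPM, read counts brought to a common library size with TMM scaling (trimmed mean of M-values). Members had between 180 and 5974 counts per library.

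Total counts were 17047286 to 19841307 per library. Abca4 measured 952 ± 18.1 CPM in WT mice and 36.2 ± 3.31 CPM in Abca4KO mice (SD, n = 3 each), so each library matched its label. All 12 RPE markers were tested, with a summed level of 32432 to 42143 CPM in WT mice and 38848 to 40719 CPM in Abca4KO. WT 2 stood apart from the others in interferon response genes and Abca4KO 1 in rod markers. WT 2 also held the lowest sums of RPE (32432 CPM), rod (688.5 CPM), cone (25.45 CPM) and melanocyte (3220 CPM) markers. Summed over 10 interferon response genes, WT 2 held 2314 CPM and the other libraries 210.6 to 319.4 CPM. Summed over 10 rod markers, Abca4KO 1 held 3403 CPM and the others 688.5 to 1795 CPM. No rod marker was at 0 in any library. Fibroblast and sclera markers (6 of 6 tested, none at 0) summed to 1330 to 1617 CPM in WT and 1644 to 2075 CPM in Abca4KO, without overlap, and endothelial markers (8 of 8 tested, none at 0) to 277.4 to 461.4 CPM and 446.3 to 703.3 CPM. Muller glia markers (6 of 6 tested, all with a negative log2 fold change, none at 0) summed to 4597 to 5668 CPM in WT and 4308 to 4749 CPM in Abca4KO, with overlap. Rlbp1 stands in both the RPE and the Muller glia list, so that this sum need not come from glia alone. The part of these cell types in the values below was not tested. Without both libraries, 0 of 10 members still passed and 4 of 10 lay lower in Abca4KO without overlap, a pattern that, in either direction, 48.1% of all tested genes showed with those 4 libraries.

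Promoter sequences are shown for 4 members, because they hold the letters of the elements named above, which is a description and no measure of binding. RefSeq windows of 250 bases before to 50 bases after the start (GRCm38.p6) were held for 9 of the 10 genes, in 13 windows, and Per2 had none. Both strands were searched for the E-box CACGTG, the related E-prime box CACGTT, the D-box TTATGTAA, the ROR element core TAGGTCA, the cAMP element TGACGTCA, the shorter TGACG that it contains, and the glucocorticoid element ACANNNTGT. Capitals mark the first 5 of these, read 5′ to 3′ on the strand of the gene. The windows lie at chr4:151044616-151044915 (minus strand, Per3), chr10:85185005-85185304 (minus strand, Cry1), chr11:69098699-69098998 (plus strand, the first of 2 for Per1) and chr7:113207261-113207560 (plus strand, the second of 2 for Arntl).
Per3: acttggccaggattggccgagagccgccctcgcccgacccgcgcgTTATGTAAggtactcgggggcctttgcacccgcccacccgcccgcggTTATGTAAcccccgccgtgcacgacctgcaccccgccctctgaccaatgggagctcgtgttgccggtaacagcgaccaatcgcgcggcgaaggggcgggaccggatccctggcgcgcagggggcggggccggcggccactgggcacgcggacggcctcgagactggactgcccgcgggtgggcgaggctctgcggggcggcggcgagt
Cry1: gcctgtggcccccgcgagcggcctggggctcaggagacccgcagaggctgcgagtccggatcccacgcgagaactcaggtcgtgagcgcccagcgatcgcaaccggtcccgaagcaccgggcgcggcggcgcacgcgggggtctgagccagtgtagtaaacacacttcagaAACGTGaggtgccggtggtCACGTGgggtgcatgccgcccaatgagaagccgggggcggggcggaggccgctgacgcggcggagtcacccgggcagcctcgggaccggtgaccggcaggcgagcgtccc
Per1: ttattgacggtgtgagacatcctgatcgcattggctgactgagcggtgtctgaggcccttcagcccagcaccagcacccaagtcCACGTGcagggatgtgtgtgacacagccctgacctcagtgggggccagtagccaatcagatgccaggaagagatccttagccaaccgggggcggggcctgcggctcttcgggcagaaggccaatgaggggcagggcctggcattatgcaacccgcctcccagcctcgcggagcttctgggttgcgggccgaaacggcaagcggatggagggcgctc
Arntl: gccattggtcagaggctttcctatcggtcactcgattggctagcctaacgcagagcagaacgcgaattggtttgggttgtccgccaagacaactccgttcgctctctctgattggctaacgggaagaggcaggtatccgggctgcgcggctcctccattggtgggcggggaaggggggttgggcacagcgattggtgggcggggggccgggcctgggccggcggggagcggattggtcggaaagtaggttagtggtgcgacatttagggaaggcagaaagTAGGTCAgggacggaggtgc

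Per3 held the D-box at 2 positions, -205 and -158 counted from the start of transcription, and 0.938% of the 32851 windows in the table held a D-box at all. Cry1 held the E-box at -60 and the E-prime box, on the other strand, at -79. Per1 held the E-box at -166. The E-box was found in 7.15% of all windows and the E-prime box in 4.68%. Arntl held the ROR element core at 31, downstream of its start, an element of 2.61% of all windows. The E-prime box was also found in the windows of Nr1d1 at -28 and of Cry2 at -166. No window of Clock, Nr1d2 or Dbp held any of the 7 motifs, which says only that these letters are not in those stretches. The whole cAMP element and the glucocorticoid element were found in 0 of 9 genes, beside 1.79% and 6.85% of all windows. The shorter cAMP motif was found in 3 genes, Per1, Cry1 and Cry2, beside 20.8% of windows.

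Expressed per kilobase of the deposited gene length (RPKM), Dbp and the Nr1d genes stood highest and Arntl lowest. Dbp led at 86.6 ± 12.3 RPKM (SD over 6 libraries), followed by Nr1d1 at 53.4 ± 5.40 RPKM and Nr1d2 at 36.8 ± 3.80 RPKM. Per1 (15.8 ± 4.26 RPKM), Cry2 (12.1 ± 1.01 RPKM) and Per2 (12.0 ± 1.66 RPKM) formed a middle group whose ranges overlapped, with Cry2 above Per2 in 3 of 6 libraries. Per3 (8.99 ± 0.648 RPKM) overlapped the range of Per2 but lay below it in all 6 libraries. Clock (6.03 ± 0.590 RPKM) and Cry1 (5.44 ± 0.422 RPKM) overlapped as well, and Clock was higher in 5 of 6 libraries. Arntl stood at 1.71 ± 0.374 RPKM, below every library of Cry1. Ranges of neighbours did not overlap between Dbp and Nr1d1, Nr1d2 and Per1, Per3 and Clock, or Cry1 and Arntl. The order depends on the gene length used. In mean CPM, Nr1d2 (212.1 in WT, 186.1 in Abca4KO) stood above Nr1d1 (159.2 in WT, 169.5 in Abca4KO). The counts of Dbp and Nr1d1 are also uncertain because of shared exon bases, as given below.

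**Figure D1:**
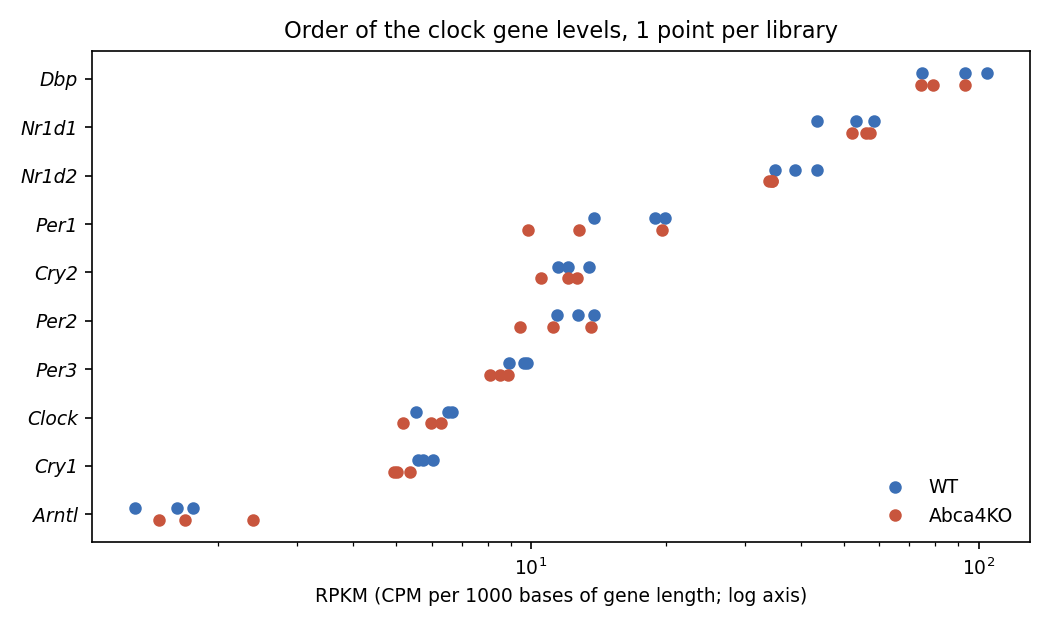
Level of each clock gene in RPKM (log axis), with 1 point per library, blue for WT and red for Abca4KO. Dbp, Nr1d1 and Nr1d2 lie at the top between 34.04 and 104.5 RPKM, and Arntl lies at the bottom between 1.30 and 2.39 RPKM in both genotypes.

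Arntl, which encodes the activator BMAL1, lies on chromosome 7 from 113207465 to 113314126 (mm10, plus strand). It measured 13.2, 12.2 and 9.80 CPM in WT 1, 2 and 3, and 18.0, 11.1 and 12.7 CPM in Abca4KO 1, 2 and 3. The groups overlapped, with Abca4KO 1 highest and WT 3 lowest, a 1.84-fold range. The log2 fold change was 0.25 (95% confidence interval -0.27 to 0.76, adjusted p = 0.861, edgeR). It was 0.02 without Abca4KO 1, so that 1 library carried nearly all of the difference.

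Clock, the partner of BMAL1, lies on chromosome 5 from 76209868 to 76304792 (minus strand). Its level was 89.7, 75.9 and 91.5 CPM in WT mice and 86.6, 82.0 and 70.9 CPM in Abca4KO, with overlap. Abca4KO minus WT came to -0.10 on the log2 scale (interval -0.36 to 0.16, adjusted p = 0.887). It was -0.02 without Abca4KO 3 and -0.18 without WT 2. Clock varied 1.29-fold over the 6 libraries, less than its partner.

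**Figure D2:**
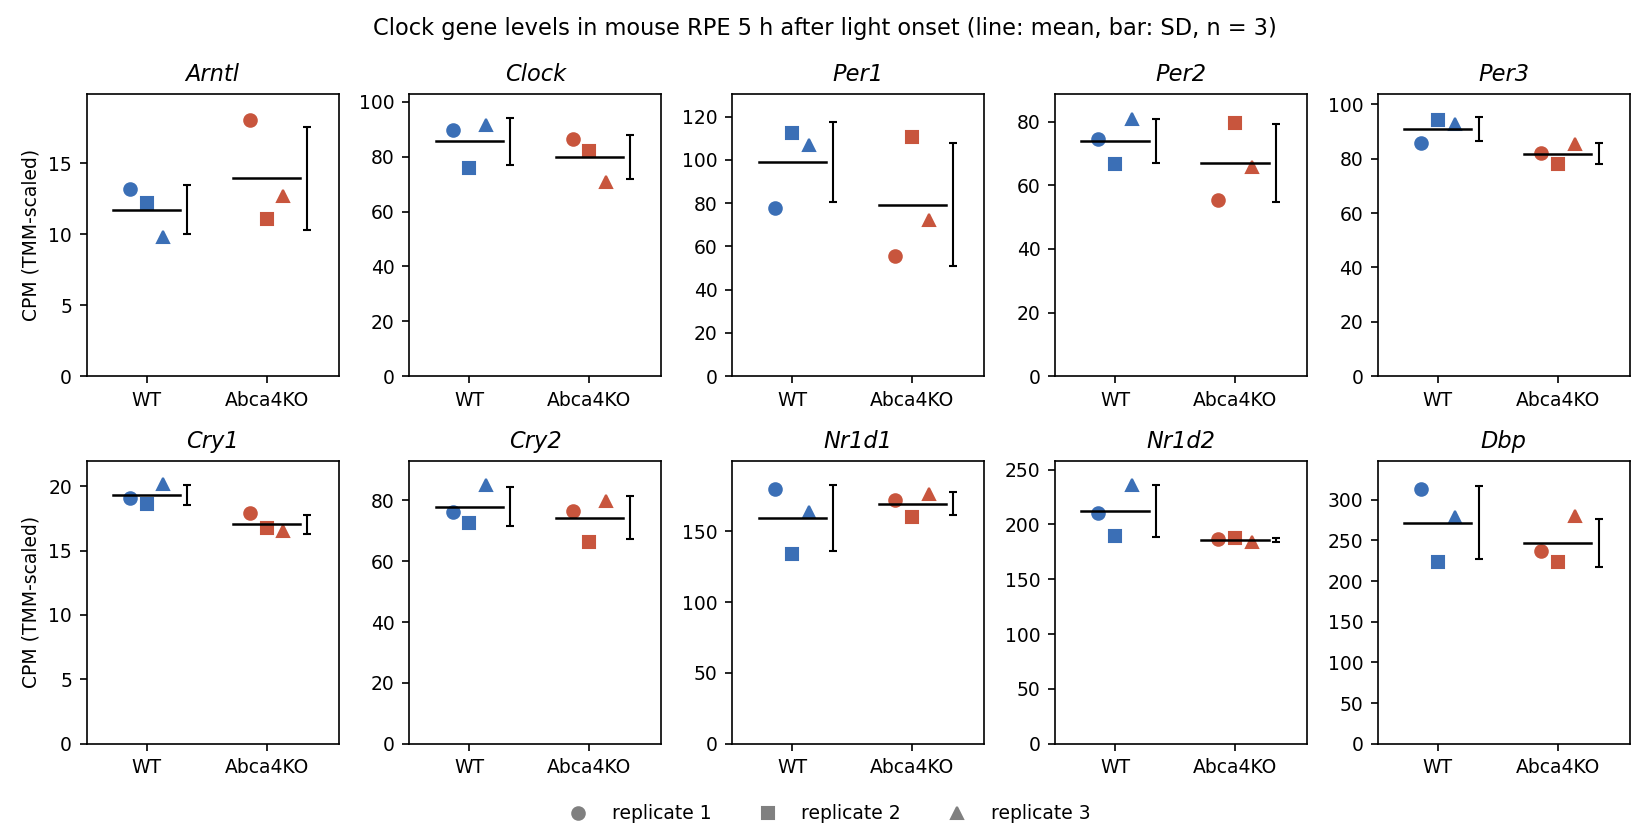
CPM of each clock gene by genotype on a linear axis from 0, with circles, squares and triangles for replicates 1, 2 and 3, a line at the mean and a bar for the SD (n = 3). The genotypes are apart in Per3, Cry1 and Nr1d2, while the Per1 libraries are spread from 55.3 to 112.5 CPM.

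The 3 Per genes, which encode the period repressors, differed mainly in how much they varied between libraries. Per1 (chromosome 11, 69095217 to 69109960, plus strand) is induced quickly by light, cAMP and stress hormones. It measured 77.7, 112.5 and 106.7 CPM in WT mice and 55.3, 110.5 and 72.1 CPM in Abca4KO. WT 2, WT 3 and Abca4KO 2 were high and Abca4KO 1 was low, so that the groups overlapped and the range over 6 libraries was 2.03-fold. A log2 fold change of -0.32 was found (interval -0.92 to 0.28, adjusted p = 0.851), and it lay between -0.63 (without Abca4KO 2) and -0.11 (without Abca4KO 1) when single libraries were left out. Within Abca4KO the coefficient of variation (CV, the SD as a percentage of the mean) was 35.7%, and 97.5% of the 10371 tested genes of at least 10 CPM had a smaller one. Within WT it was 18.9%, and 81.5% of those genes had a smaller one.

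Per2 (chromosome 1, 91415982 to 91459324, minus strand) measured 74.5, 66.7 and 80.7 CPM in WT mice and 55.4, 79.7 and 65.7 CPM in Abca4KO. Abca4KO 1 was again the lowest and the groups overlapped, with a log2 fold change of -0.14 (interval -0.48 to 0.19, adjusted p = 0.880). That value was -0.02 without Abca4KO 1 and -0.29 without Abca4KO 2. Without Abca4KO 2, the genotypes no longer overlapped in Per1 and Per2 either, with Abca4KO lower. That raised the number of members without overlap to 5 of 10, beside 20.2% of all tested genes with those 5 libraries.

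Per3 (chromosome 4, 151003652 to 151044665, minus strand), whose D-box pair is shown above, was the steadiest of the 3. It measured 85.9, 94.3 and 92.7 CPM in WT mice and 82.1, 77.9 and 85.5 CPM in Abca4KO. The CV was 4.91% in WT and 4.67% in Abca4KO. The genotypes were apart by a narrow margin, with Abca4KO lower (log2 fold change -0.15, interval -0.34 to 0.03, adjusted p = 0.759). With 3 against 3 libraries the exact permutation test cannot give a p below 0.1, which is the value it gave here. Scaled by library totals alone, the lowest WT library held 86.03 CPM and the highest Abca4KO library 86.29 CPM, so that the groups then overlapped.

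The cryptochrome genes encode the partners of PER in the repressor complex. Cry1 (chromosome 10, 85131700 to 85185064, minus strand) measured 19.1, 18.6 and 20.1 CPM in WT mice and 17.9, 16.7 and 16.5 CPM in Abca4KO. The groups did not overlap. Scaled by library totals alone, they were all but level, with 18.191 CPM in the lowest WT library and 18.186 CPM in the highest Abca4KO library. The CV was 4.01% in WT and 4.45% in Abca4KO. The log2 fold change was -0.18 (interval -0.44 to 0.08, adjusted p = 0.800), and it lay between -0.22 and -0.14 when single libraries were left out.

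Cry2 (chromosome 2, 92403646 to 92434043, minus strand) measured 76.3, 72.4 and 85.1 CPM in WT mice and 76.6, 66.5 and 79.9 CPM in Abca4KO. The groups overlapped, with a log2 fold change of -0.07 (interval -0.31 to 0.17, adjusted p = 0.926) that turned to 0.01 without Abca4KO 2. Cry2 shares 295 exon bases with D930015M05Rik on the opposite strand, which held 79 counts over the 6 libraries.

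Nr1d1, which encodes REV-ERBα, lies on chromosome 11 from 98767932 to 98775333 (minus strand). The level was 179.8, 134.0 and 163.8 CPM in WT mice and 172.1, 160.2 and 176.3 CPM in Abca4KO. WT 2 was lowest, below all other libraries, and the groups overlapped. The log2 fold change was 0.09 (interval -0.18 to 0.36, adjusted p = 0.906), and -0.02 without WT 2. The count of Nr1d1 is uncertain, since 263 of its exon bases are shared with Thra on the opposite strand, a gene with 11835 counts over the 6 libraries. Thra, a thyroid hormone receptor gene, had a log2 fold change of -0.07 (adjusted p = 0.906).

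Nr1d2, which encodes the related REV-ERBβ, lies on chromosome 14 from 18204054 to 18239127 (minus strand). It measured 210.8, 189.3 and 236.1 CPM in WT mice and 187.1, 187.2 and 184.1 CPM in Abca4KO. The Abca4KO libraries were nearly level, with a CV of 0.943%, and 0.868% of the genes of at least 10 CPM had a smaller one. They held 3687, 3628 and 3168 counts of Nr1d2, for which counting error alone is larger than this CV. So close an agreement of 3 values need not be a trait of the gene. The Abca4KO libraries lay just below WT 2, the lowest WT library. The log2 fold change was -0.19 (interval -0.41 to 0.03, adjusted p = 0.740), -0.26 without WT 2 and -0.10 without WT 3. Scaled by library totals alone, the groups overlapped, with 184.8 CPM in the lowest WT library and 190.0 CPM in the highest Abca4KO library.

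Dbp, the output factor, lies on chromosome 7 from 45705088 to 45710203 (plus strand). Dbp stood at 312.8, 223.4 and 278.9 CPM in WT mice and 236.7, 223.0 and 279.6 CPM in Abca4KO. WT 2 and Abca4KO 2 were at the same low level and the groups overlapped. Dbp had a log2 fold change of -0.14 (interval -0.47 to 0.19, adjusted p = 0.881), which was -0.03 without WT 1 and -0.26 without WT 2. Dbp shares 539 exon bases with Sphk2 on the opposite strand, a gene with 3082 counts over the 6 libraries, and its count is uncertain to that extent. Arntl shares 33 exon bases with Gm45355, which held 3 counts, and the other 6 members share no exon base with another annotated gene.

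**Figure D3:**
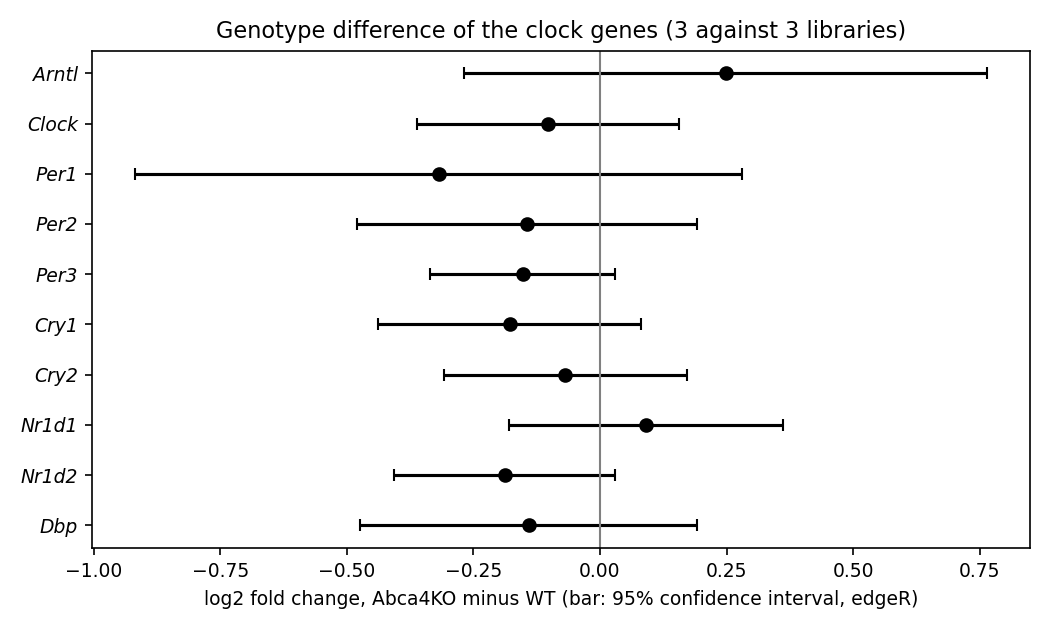
Log2 fold change of Abca4KO minus WT for the 10 clock genes, with 95% confidence intervals derived from the edgeR test and not adjusted for the number of genes. All 10 intervals include 0, with Per3 and Nr1d2 ending at 0.03 and Per1 reaching from -0.92 to 0.28.

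The intervals bound what a difference could be. For Per3 they run from 0.793-fold to 1.02-fold of WT, and for Nr1d2 from 0.755-fold to 1.02-fold. For Arntl they run from 0.830-fold to 1.70-fold, and for Per1 from 0.529-fold to 1.21-fold. In RNA of a whole tissue layer, fewer cells of a type and less RNA per cell cannot be told apart.

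Members were then compared with Dbp across the 6 libraries, on log2 CPM with a prior count of 1, in 9 pairs. Nr1d1 was closest to it, with Pearson's r = 0.69 (exact permutation p = 0.075, adjusted p = 0.675 over 9 pairs) and Spearman's rho = 0.89 (exact permutation p = 0.0333, adjusted p = 0.300). Without WT 1 and Abca4KO 2, the libraries farthest from the Dbp median, r was 0.68. Cry2 followed with r = 0.66 (exact permutation p = 0.164, adjusted p = 0.738) and rho = 0.60 (exact permutation p = 0.242, adjusted p = 0.846), and r was 0.91 without those libraries. Arntl, which runs opposite to Dbp over the day, had r = -0.12 (exact permutation p = 0.867, adjusted p = 0.867) and rho = 0.37 (exact permutation p = 0.497, adjusted p = 0.846), with r = -0.51 without those libraries. None of the 9 pairs passed an adjusted p of 0.05. The other 6 had r between -0.27 (Per1) and 0.57 (Nr1d2). With 3 libraries a genotype is too small for a correlation of its own.

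To set the opposite arms of the loop against each other, the mean log2 CPM of Arntl, Clock, Cry1 and Npas2 was subtracted from that of Dbp, Nr1d1, Nr1d2, Per1, Per2 and Per3 in each library. Cry1 stands with Arntl because ROR elements also act on it and its peak comes later in the day than that of the Per genes, and Cry2 was placed in neither arm. Such a difference does not depend on library scaling. It was 2.82, 2.96 and 3.11 in WT 1, 2 and 3 and 2.46, 2.96 and 2.97 in Abca4KO 1, 2 and 3. Abca4KO 1 stood lowest and the other 5 libraries ran from 2.82 to 3.11. The mean difference between genotypes was -0.17, and it was 0.00 without Abca4KO 1. That library had the highest Arntl (18.0 CPM) and Npas2 (5.99 CPM), the lowest Per1 and Per2, and the highest summed rod markers (3403 CPM). The part of rod RNA in this was not tested. No test was made of the contrast, since its genes were chosen with earlier results known.

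**Figure D4:**
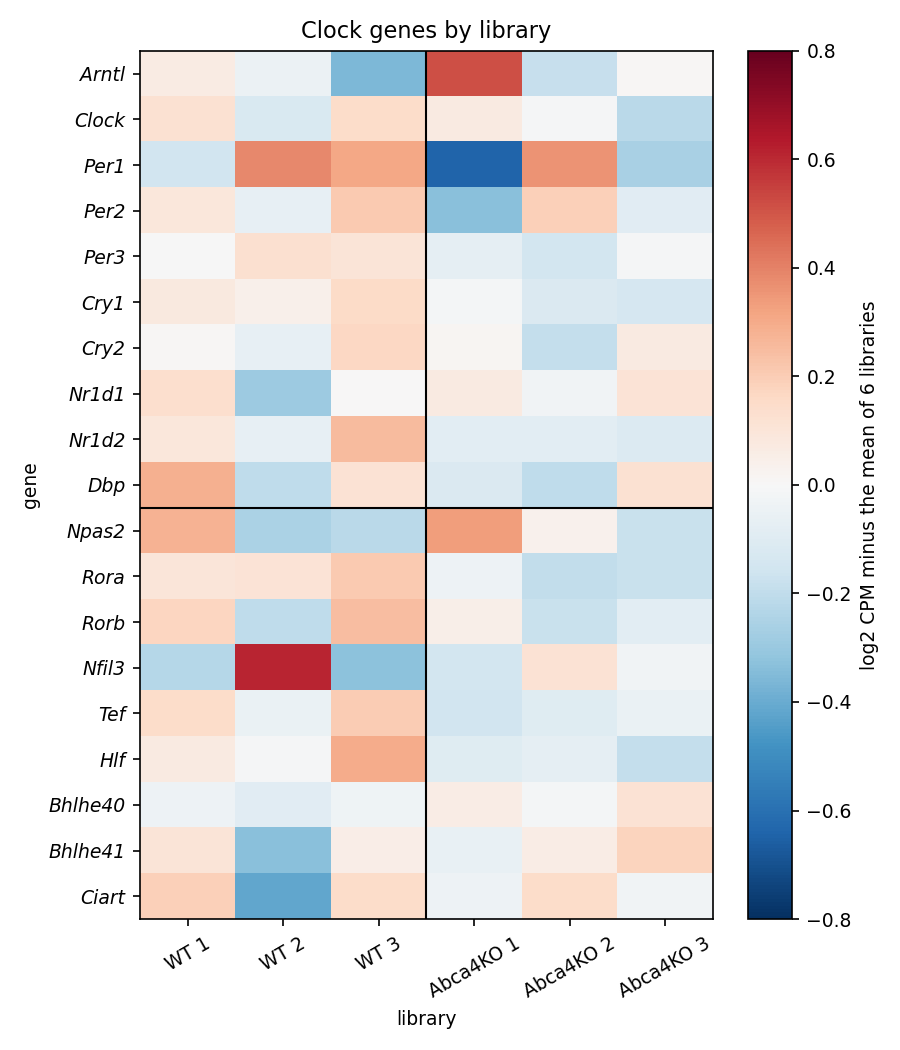
Log2 CPM minus the mean of the 6 libraries, for the 10 clock genes above the line and further clock genes from the fixed lists below it, by library. Abca4KO 1 shows high Arntl (0.51) with low Per1 (-0.64), and WT 2 shows high Nfil3 (0.61) with low Ciart (-0.41) and low Nr1d1 (-0.29).

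Further genes of the pathway were taken from fixed lists of 66 genes besides the members, of which 59 were tested. Of these, 0 passed an adjusted p of 0.05 with edgeR, DESeq2 or limma-voom. At an unadjusted p under 0.05, edgeR gave 1 higher and 6 lower, DESeq2 gave 0 and 3, and limma-voom gave 2 and 9. Over all tested genes the shares were 3.15% higher and 3.87% lower with edgeR, and in either direction 6.1% with DESeq2 and 16.9% with limma-voom. In edgeR 20 of the 59 had a positive and 39 a negative log2 fold change, with a median of -0.07 beside -0.01 over all tested genes. The genotypes did not overlap in 11 of the 59, with 2 higher and 9 lower in Abca4KO, beside 12.8% over all tested genes.

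The first list held partners of the activators and factors that act on ROR elements (6 tested, 2 positive, 4 negative, median -0.13). Rora, an activator of Arntl, measured 99.8, 100.4 and 107.6 CPM in WT mice and 90.7, 81.2 and 82.4 CPM in Abca4KO, without overlap (log2 fold change -0.28, adjusted p = 0.616). Rorb had a log2 fold change of -0.15 (adjusted p = 0.857) with overlap, between -0.28 (without WT 2) and -0.06 (without WT 3) when single libraries were left out.

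The list of repressor partners, kinases and ubiquitin ligases (16 tested) was split evenly, with 8 positive and 8 negative and a median of -0.01. Csnk1e, a kinase of the PER proteins, measured 38.0, 36.5 and 36.5 CPM in WT mice and 40.7, 45.5 and 46.0 CPM in Abca4KO, without overlap (log2 fold change 0.25, adjusted p = 0.648). Ncor1, the corepressor that REV-ERB proteins recruit, measured 152.1, 155.9 and 149.8 CPM in WT mice and 143.2, 124.4 and 133.1 CPM in Abca4KO (log2 fold change -0.19, adjusted p = 0.706). Btrc, a ubiquitin ligase subunit for PER, had a log2 fold change of -0.12 (adjusted p = 0.793) without overlap. Btrc shares exon bases with Gm6807 (504 counts) and Ncor1 with Pigl (802 counts) on the opposite strand, and both are uncertain to that extent. In the same way Csnk1e shares exon bases with Gm16059 (21 counts).

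Of the rhythmic output genes 9 of 10 were tested, with 1 positive, 8 negative and a median of -0.20. Tef and Hlf are relatives of Dbp whose products bind the same D-box, and Tef shares exon bases with Gm17597 (145 counts). Tef measured 434.8, 378.0 and 452.1 CPM in WT mice and 353.5, 367.0 and 378.8 CPM in Abca4KO, overlapping only between WT 2 and Abca4KO 3 (log2 fold change -0.20, adjusted p = 0.714). Hlf measured 128.6, 122.0 and 150.6 CPM in WT mice and 114.6, 116.7 and 107.5 CPM in Abca4KO, without overlap (log2 fold change -0.24, adjusted p = 0.701, and -0.15 without WT 3). Klf10, a zinc finger factor under clock control, had a log2 fold change of -0.39 (adjusted p = 0.691), also without overlap. Dbp, Tef and Hlf, all 3 of the D-box activators, had negative log2 fold changes of -0.14, -0.20 and -0.24, and none passed.

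Genes that respond to glucocorticoid hormone (10 tested, Per1 among them, 2 positive, 8 negative) had a median of -0.12. Errfi1, a feedback inhibitor of the EGF receptor, measured 59.9, 59.1 and 64.1 CPM in WT mice and 45.5, 46.3 and 46.8 CPM in Abca4KO, without overlap (log2 fold change -0.40, adjusted p = 0.393). The receptor gene Nr3c1 had a log2 fold change of -0.12 (adjusted p = 0.846), and -0.03 without WT 2. Immediate early and cAMP response genes (12 tested, 1 positive, 11 negative) had a median of -0.35. WT 2, the library with high interferon response genes, was the highest library for 9 of these 12. How many of all tested genes were highest in WT 2 was not computed. Without WT 2 the median was -0.07 and 7 of 12 were negative, and the part of the interferon response was not tested. Sik1, a kinase that limits the response of the clock to light, measured 31.6, 44.4 and 31.2 CPM in WT mice and 27.8, 24.7 and 23.9 CPM in Abca4KO (log2 fold change -0.49, adjusted p = 0.625). Fos and Nr4a1 had log2 fold changes of -0.57 (adjusted p = 0.759) and -0.47 (adjusted p = 0.797), with WT 2 the highest library for both. Without WT 2 the log2 fold change was -0.31 for Fos, -0.10 for Nr4a1 and -0.30 for Sik1.

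Opsins and genes of melatonin and dopamine signalling, which carry light and time cues in the eye, were tested for 7 of 13 genes (6 positive, 1 negative, median 0.11). Opn3 had a log2 fold change of -0.78 (adjusted p = 0.761) at 1.57 CPM in WT, but its 140 counts over the 6 libraries are uncertain, since 461 of its exon bases are shared with Chml (728 counts) on the same strand. Drd4, a dopamine receptor gene of photoreceptors, measured 3.30, 0.913 and 3.87 CPM in WT mice and 7.76, 1.45 and 3.31 CPM in Abca4KO. It was highest in Abca4KO 1 and lowest in WT 2, as were the summed rod markers (3403 and 688.5 CPM), and the part of rod RNA in it was not tested. Drd4 had a log2 fold change of 0.63 (adjusted p = 0.891) and Drd1 one of 0.84 (adjusted p = 0.889), and both turned negative without Abca4KO 1 (-0.18 and -0.16). Opn5, Mtnr1a, Mtnr1b, Asmt and Drd5 had 0 counts in all 6 libraries, which allows up to 3 counts, or 0.152 to 0.174 CPM, per library. Such limits cover counting error only.

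The genes whose pattern over the 6 libraries was most like that of Dbp, by Pearson's r of log2 CPM among 13847 genes, were Kif1c (r = 0.98), Dbndd2 (0.98) and Hdhd2 (0.98). Those most like Arntl were Gfod2 (0.98), Psmd12 (0.98) and Spaar (0.98). A total of 26 genes reached r = 0.95 with Dbp and 11 with Arntl. Among 13847 genes and with 6 libraries some reach such an r by chance, and the number to expect was not computed. The r values are descriptions over 6 libraries, and none of the 6 named genes passed the genotype test. Kif1c, a kinesin motor gene, was, like Dbp, highest in WT 1 (370.6 CPM) and lowest in Abca4KO 2 (312.3 CPM).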

How the data were processed

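RNA of the RPE from WT and Abca4KO mice was sequenced in 6 libraries (3 WT, 3 Abca4KO). The authors deposited raw read counts per gene, 1 column per library, with the gene length in bases, from which RPKM was computed. Per the submitters' processing notes, STAR and HTSeq were used with the build mm10, and versions are not stated there. The annotation release, the use of strand and the handling of reads matching several genes are not given. Coordinates are those of the deposited table, and for all 10 members they equal GENCODE M21, from which exon overlaps were taken. Promoter windows are from RefSeq (GRCm38.p6).

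Genes were filtered with filterByExpr (minimum count 10), scaled by TMM and tested for Abca4KO against WT by the 2-sided quasi-likelihood test of edgeR 4.0.16 (R 4.3.3, prior count 0.125) over 6 libraries. P-values were adjusted by Benjamini-Hochberg over all 17340 genes. DESeq2 1.42.0, limma-voom 3.58.1 with sample weights, other scalings and filters, the replicate number as a block, a rod marker covariate and left-out libraries were alternatives. The code was tested on simulated data. The labels call the libraries biological replicates, and each was taken here as 1 mouse. Any 2 libraries differed by more than counting noise (chi-square per degree of freedom at least 12.6).

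The members, lists and alternatives were chosen with earlier results of these data known. Genes were named by rule: the members and Abca4, up to 3 per list by smallest p, and the 3 most like Dbp and Arntl with at least 1 CPM, without Gm, Rik and pseudogene entries. Npas2, Thra, Nfil3, Ciart, Tsc22d3, Fkbp5, Cdkn1a, Sgk1, Ddit4, Usp2, genes sharing exons and genes with 0 counts were named after their values had been looked at. A gene that the rule names is not reported here.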

Additional observations from a re-analysis of the deposited data

How the results depend on the processing

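Under all 15 alternatives 0 of 10 members and 0 further list genes passed an adjusted p of 0.05, with a lowest adjusted p for a member of 0.198 (Nr1d2, limma-voom). At an unadjusted p under 0.05 the count was 0 in 9 of the 15. It was 1 with the replicate block (Per1), the rod covariate (Nr1d2), without WT 2 (Nr1d2) and without Abca4KO 2 (Per1). It was 2 (Clock and Nr1d2) with limma-voom and without WT 2 and Abca4KO 1 together. Among the alternatives, shares of all tested genes at that threshold were computed for DESeq2 and limma-voom only. Of 150 refits of single members, 146 kept the direction. Those that did not were Cry2 without WT 3 (0.00) and without Abca4KO 2 (0.01), and Nr1d1 without WT 2 (-0.02) and without WT 2 and Abca4KO 1 together (-0.04). With single libraries left out Cry2 ranged from -0.12 to 0.01, Nr1d1 from -0.02 to 0.19, Drd1 from -0.16 to 1.96 and Drd4 from -0.18 to 1.04. Drd1 and Drd4 turned to -0.16 and -0.18 without Abca4KO 1 and to -0.64 and -0.61 without both libraries. Without the libraries farthest from the Dbp median, its correlation turned to -0.08 with Per3 and -0.06 with Cry1. Between 7 and 9 members were negative. The members lower without overlap numbered 1 (Cry1) with library totals alone and 3 to 5 with single libraries left out. They numbered 5 without Abca4KO 2, where 20.2% of all tested genes showed no overlap in either direction. That share was not computed for the other left-out libraries or for library totals. The phase contrast lay between -0.25 and 0.00 with single libraries left out. The shorter cAMP motif was in 3 members, the whole element in 0. Over all genes, 8 passed, with 19 without a filter, 106 with DESeq2, 31 with limma-voom, 21 with the rod covariate, 190 without WT 2 and Abca4KO 1, and 3 to 11 with single libraries left out. The cause of these changes was not tested.

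Deviations of same-numbered libraries correlated at 0.17, 0.34 and -0.08, and those of different-numbered libraries at -0.37 to 0.31. With 3 libraries per genotype these values cannot decide whether the replicate numbers mark pairs. With the replicate number as a block 9 genes passed over all genes and 0 of 10 members. Each member held at least 180 counts in every library.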

Other observations

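Per1 shared its high libraries with some genes that respond to glucocorticoid hormone, a pattern chosen after the values were seen. Tsc22d3, which encodes the hormone-induced protein GILZ, measured 118.1 CPM in library WT 2 and 112.3 CPM in Abca4KO 2, and 50.8 to 66.4 CPM in the other 4 libraries. Fkbp5, a chaperone gene of the glucocorticoid receptor, measured 22.4 CPM in library WT 2 and 29.0 CPM in Abca4KO 2, and 15.2 to 17.8 CPM in the others. Per1 was at 112.5 and 110.5 CPM in those libraries, but also at 106.7 CPM in WT 3, where Tsc22d3 (64.7 CPM) and Fkbp5 (17.5 CPM) were not raised. WT 2 and Abca4KO 2 were the highest libraries for 4 of the 10 tested genes of that list, Per1, Tsc22d3, Fkbp5 and Cdkn1a, and not for the other 6. Per1 is counted among these 4 although its own values set the pattern. The share of all tested genes with this pattern was not computed. Sgk1, also induced by the hormone, was lowest in WT 2 (1100 CPM), and Ddit4 was lowest in Abca4KO 2 (41.7 CPM). Usp2, a deubiquitinase gene rhythmic in many tissues, was highest in Abca4KO 2 (44.4 CPM) and WT 3 (42.8 CPM), at 27.97 CPM in WT 2 and lowest in Abca4KO 3 (18.4 CPM). The high libraries lie in both genotypes. Mitochondrial genes took 7.82% of counts in WT 2 and 8.92% in Abca4KO 2, beside 5.79% to 7.58% in the other 4 libraries. WT 2 thus stood close to Abca4KO 1 (7.58%), which had the lowest Per1.

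Some clock genes, named after their values were seen, had their highest or lowest level in WT 2, the library with high interferon response genes. Nfil3, the repressor that competes with DBP at the D-box and is also induced in immune responses, measured 11.01 CPM there and 5.72 to 7.79 CPM in the others. Ciart, a repressor of CLOCK and BMAL1, measured 22.6 CPM there and 29.2 to 34.2 CPM in the others. Nr1d1 was also lowest there (134.0 CPM). Of the 10 members, WT 2 was the highest library for 2 and the lowest for 1. The share of all tested genes with an extreme in that library was not computed. WT 2 also held the lowest summed RPE markers, at 32432 CPM beside 38848 to 42143 CPM in the others. The part of the interferon response or of RPE content in the values of these clock genes was not tested.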
